A study of Homo sapiens with 2 samples.

Results

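The desmosome genes examined here were 10: the desmogleins DSG1, DSG2, DSG3 and DSG4, the desmocollins DSC1, DSC2 and DSC3, desmoplakin (DSP) and the plakophilins PKP1 and PKP2. ATAC-seq peaks were taken where any part lay at most 3 kb from a transcription start site (TSS) of these genes. All peaks between DSC3 and DSG2 on chromosome 18 were added, because the 7 desmosomal cadherin genes lie side by side there. This gave 27 peaks of 275244 on the main chromosomes, 6 of 114060 in the DMSO library and 21 of 161184 in the MAK683 library.

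The libraries were made from G401, an established malignant rhabdoid tumor line of the kidney that is deficient in SMARCB1. Cells were treated for 3 days with the solvent DMSO or with MAK683, an inhibitor of the EED subunit of the histone methyltransferase PRC2, at 3 μM per the series description. ATAC-seq reports where the transposase Tn5 can enter chromatin, and the comparison asks whether PRC2 inhibition changes the opening of these genes. There was 1 library per group, so every difference is between 2 libraries and none could be tested against the spread between cultures. After filtering, the DMSO library held 16598348 tags and the MAK683 library 18265284. Peak height is given as tags over the summit per 1000000 filtered tags (RPM), with a 95% exact Clopper-Pearson interval that covers counting error only. The lowest listed peak had 6 tags in both libraries, which is 0.361 RPM in DMSO and 0.328 RPM in MAK683. A gene without a listed peak is therefore only known to lie near or below that level. Heights average over all cells of a culture, so more open cells and wider opening in each cell cannot be told apart. SMARCB1 had 0 peaks in its gene body and none in its promoter window in either library, which goes with the label of the line. None of the keratinocyte markers TP63, KRT5, KRT14 and KRT1 had a promoter peak in either library. Among blood markers, SPI1 had a low peak of 10 tags in DMSO and 11 tags in MAK683, and PTPRC and CD3E had none. Of 2 endothelial markers, CDH5 and TEK, both had a peak of 11 tags in MAK683 and none in DMSO. Among 20163 protein-coding genes, 7.87% had a promoter peak in MAK683 alone and 19.4% in neither library.

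Desmosomes are the spot-like junctions that fasten neighbouring cells to each other. Desmogleins and desmocollins are cadherins whose outer domains meet between the cells. Plakophilins and plakoglobin bind their tails inside the cell, and desmoplakin ties this plaque to keratin or other intermediate filaments. DSG2, DSC2, DSP and PKP2 are used by simple epithelia and by heart muscle. DSG1, DSG3, DSG4, DSC1, DSC3 and PKP1 are best known from the layers of stratified epithelia such as skin, or from hair.

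The sequences before the start sites differ between these genes, and they are shown because their base composition is set against the peaks. Each is the 200 bases before the first annotated TSS of the gene, in GRCh37 and on the strand of the gene, with CpG dinucleotides in capitals. DSG2 (chr18:29077940-29078139, plus strand) held 20 CpG and lay inside a MAK683 peak. DSC3 (chr18:28622782-28622981, minus strand) held 18 and had no peak, and DSC1 (chr18:28742820-28743019, minus strand) held 0 and had no peak.
DSG2: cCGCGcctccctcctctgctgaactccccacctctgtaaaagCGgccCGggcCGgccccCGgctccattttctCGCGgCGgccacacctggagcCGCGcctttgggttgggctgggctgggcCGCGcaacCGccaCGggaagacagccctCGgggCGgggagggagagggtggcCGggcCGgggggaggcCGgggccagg
DSC3: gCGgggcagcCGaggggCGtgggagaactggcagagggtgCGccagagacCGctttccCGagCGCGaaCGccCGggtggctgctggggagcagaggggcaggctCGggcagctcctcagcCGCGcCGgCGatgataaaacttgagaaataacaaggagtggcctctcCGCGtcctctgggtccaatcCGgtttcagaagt
DSC1: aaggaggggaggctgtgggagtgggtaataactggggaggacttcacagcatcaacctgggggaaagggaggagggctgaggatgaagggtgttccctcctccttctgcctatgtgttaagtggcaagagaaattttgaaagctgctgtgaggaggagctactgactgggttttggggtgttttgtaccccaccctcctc

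The upstream sequences of DSG1 (chr18:28897923-28898122) and DSG3 (chr18:29027504-29027703), both on the plus strand, are shown for a stretch they have in common. They shared an identical run of 20 bases, given in capitals, which began 120 bases before the TSS of DSG1 and 78 bases before that of DSG3. Over all 45 pairs of the 10 genes the longest shared run had a median of 9 bases, and the next longest was 13. DSG1 and DSG3 are related genes of the same cluster, and neither had a promoter peak.
DSG1: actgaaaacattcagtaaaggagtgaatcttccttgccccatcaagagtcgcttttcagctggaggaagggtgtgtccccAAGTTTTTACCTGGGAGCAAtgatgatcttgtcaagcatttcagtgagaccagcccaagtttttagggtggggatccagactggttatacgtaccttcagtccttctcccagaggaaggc
DSG3: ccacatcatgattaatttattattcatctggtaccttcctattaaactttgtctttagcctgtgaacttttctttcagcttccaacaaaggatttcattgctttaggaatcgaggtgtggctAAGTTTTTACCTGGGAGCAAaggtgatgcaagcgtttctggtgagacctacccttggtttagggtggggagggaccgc

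In DMSO, 2 of the 10 genes, DSP and PKP2, had a promoter peak. The same genes and 3 more, DSG2, DSC2 and PKP1, had one in MAK683. DSG1, DSG3, DSG4, DSC1 and DSC3 had none in either library. Among 20163 protein-coding genes, 72.7% had a promoter peak in DMSO and 78.7% in MAK683. A peak in MAK683 alone was found at 7.87% of all genes, against 3 of the 10 here. A peak in neither library was found at 19.4% of all genes, against 5 of the 10. No member had a peak in DMSO alone. The plot of promoter heights shows these values gene by gene.

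**Figure D1:**
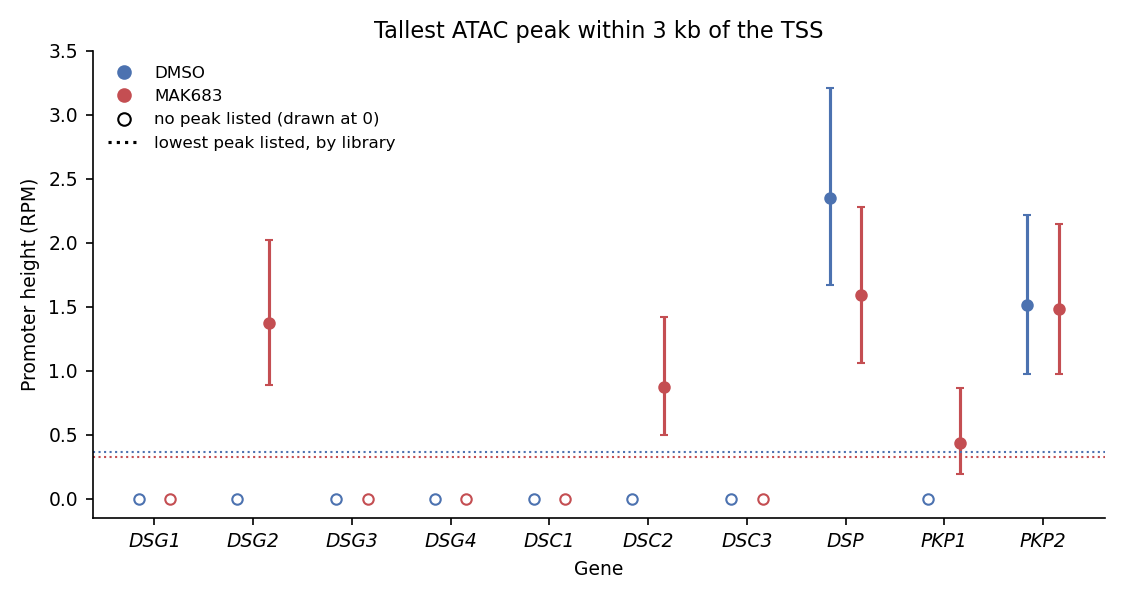
Height in RPM of the tallest peak within 3 kb of the TSS of each gene (x axis) in the DMSO and MAK683 libraries, with exact 95% counting intervals as bars; open circles at 0 are genes with no listed peak, and dotted lines are the lowest listed heights (0.361 and 0.328 RPM). DSP and PKP2 have points in both libraries, whereas DSG2, DSC2 and PKP1 have a point in MAK683 alone.

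DSG2 encodes the desmoglein with the widest tissue range. DSG2 (ENSG00000046604; chromosome 18, 29078140 to 29128971, plus strand) had no peak anywhere in the gene in DMSO. In MAK683 a peak of 1368 bp at 29077452 to 29078819 covered its TSS, with 25 tags over a summit 239 bp downstream, in an intron. The height was 1.37 RPM (0.886 to 2.02), with a −log10 q of 20.6. Scaled by depth alone, this height would correspond to 22.7 tags in the DMSO library, where peaks down to 6 tags were listed. Other differences between the libraries are not in that scaling, and the reason for the missing DMSO peak was not tested. MAK683 alone gave a promoter peak at 1587 protein-coding genes, of which 19 had a taller one, and the median was 0.602 RPM. The study itself lists DSG2 in a gene group with high H3K27me3, the mark set by PRC2, and reports higher RNA after MAK683, also by qPCR in xenograft tumors. That group came from clustering that used ATAC-seq data of G401 among other measures. The choice of DSG2 was therefore not independent of these cells or of this kind of data. Weaker MAK683 peaks flanked the main one. One of 8 tags at 29076747 to 29076946 lay upstream, within the noncoding gene ENSG00000266521 (intron), and one of 9 tags at 29080149 to 29080556 lay in an intron of DSG2, 2260 bp downstream of the TSS.

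DSC2 encodes the desmocollin that pairs with DSG2 in simple epithelia and heart. DSC2 (ENSG00000134755; chromosome 18, 28638806 to 28682485, minus strand) also had no DMSO peak in its window or body. In MAK683 a peak of 865 bp at 28681744 to 28682608 covered the TSS at 28682384. It reached 16 tags and 0.876 RPM (0.501 to 1.42), with a −log10 q of 10.3. The summit lay 478 bp downstream, in an exon of DSC2 and an intron of the antisense RNA gene DSCAS. A separate peak of 9 tags at 28681311 to 28681510 followed within an intron of DSC2. The height was lower than that of DSG2, but their intervals overlapped. Of the 1587 promoters with a peak in MAK683 alone, 201 were taller than DSC2.

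The other desmosomal cadherins gave no promoter signal. DSG1 and DSG3, the desmogleins known as targets of the skin autoantibodies of pemphigus, had no peak in their windows or bodies in either library. DSG4, which acts in hair, had no promoter peak and 1 MAK683 peak within its body, of 11 tags at 28976562 to 28977326. The summit was in an intron of both DSG4 and the antisense gene DSG1-AS1. The desmocollins DSC1 and DSC3 had no peak in window or body. A signal below the listing limit would not appear at any of these genes.

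The whole interval from DSC3 to DSG2 (chromosome 18, 28569331 to 29128971, 560 kb) held 0 peaks in DMSO and 17 in MAK683. The MAK683 peaks covered 7044 bp, or 1.26% of the interval. Their heights ran from 7 to 25 tags with a median of 9, and 15 of the 17 had at most 12 tags. The promoter peaks of DSG2 and DSC2 were the tallest of them. They were followed by a peak of 12 tags at 29126155 to 29126488, in an exon of DSG2 and an intron of DSG2-AS1, then by the peak of 11 tags in DSG4 and one of 10 tags at 29091271 to 29091471 in an intron of DSG2. As DMSO had no peak there, none of the 17 could overlap one. Of all MAK683 peaks 56.8% overlapped no DMSO peak, and on chromosome 18 outside the interval 71.2% did not. When peaks were required to have a −log10 q of 5 or more the interval kept 4 MAK683 peaks, and at 10 or more it kept 2, those at the promoters of DSG2 and DSC2. The map of the interval shows the peaks along the genes.

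**Figure D2:**
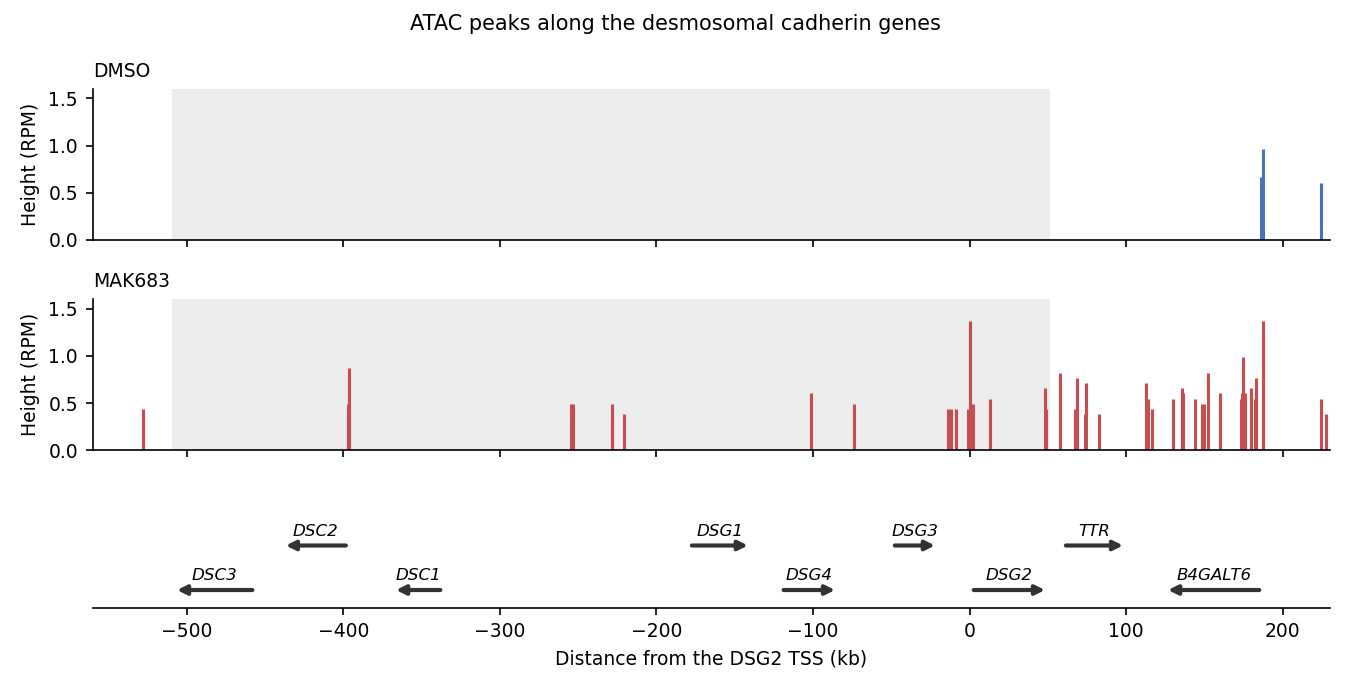
Peak heights in RPM (y axis) at their summits along the desmosomal cadherin genes in the DMSO (top) and MAK683 (middle) libraries, against the distance in kb from the DSG2 TSS; arrows mark genes and their strand, and the interval from DSC3 to DSG2 is shaded. The shaded DMSO panel is empty, and the 17 MAK683 peaks there peak at 1.37 RPM at DSG2.

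These peaks were unevenly placed between the genes. The DSG2 gene with 3 kb before its start held 6 of the 17 in 53.8 kb, and DSC2 with 3 kb before its start held 2 in 46.7 kb. Of the rest, peaks of 8 tags at 29064452 to 29064651, 29066287 to 29066718 and 29069502 to 29069812 lay between DSG3 and DSG2. The summits at 28823844 and 28824722, of 9 tags each, lay in introns of the noncoding gene ENSG00000289619, between DSC1 and DSG1. Those at 28849926 and 28857199, of 9 and 7 tags, lay between annotated genes of the same stretch. One of 9 tags at 29004515 lay in an intron of DSG1-AS1, and the last was the peak of 11 tags in DSG4. Of the 6 peaks at DSG2, the one not yet described had 8 tags, with a summit at 29127072 in an untranslated part of the gene. Several were at the shortest length listed, since 5 of the 17 spanned exactly that length, 200 bp.

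The lack of DMSO peaks was not limited to the desmosomal genes. In DMSO no peak was listed over 3506 kb, from 25757853 in the gene CDH2 to 29264139 in the gene B4GALT6. In MAK683 the nearest peaks outside the interval ended at 28550662 and began at 29135339. In the 500 kb before DSC3 the libraries had 0 and 1 peaks, and in the 500 kb after DSG2 they had 9 in DMSO and 36 in MAK683. The transthyretin gene TTR, next to DSG2, had 0 DMSO and 5 MAK683 peaks in its annotated span, 29136972 to 29178796. Most of that span lies upstream of the TSS used, 29171840, and TTR had no promoter peak in either library. B4GALT6 had 2 and 17 in its body. At its promoter the height was 0.964 RPM in DMSO and 1.37 RPM in MAK683. Chromosome 18 outside the interval had 1540 DMSO and 3252 MAK683 peaks, a ratio of 2.11, and all main chromosomes together had a ratio of 1.41.

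Peak numbers were also counted in windows with a base composition like that of the interval. The interval had a GC content of 37.2%, against 39.8% for chromosome 18 and 40.9% for the main chromosomes. The main chromosomes were divided into 5122 windows of the length of the interval, a step chosen after its values were seen. Of these, 16.7% had no DMSO peak, and 0.586% had no DMSO peak together with at least 17 MAK683 peaks. In the 913 windows within 1 percentage point of the GC content of the interval, there were 7367 DMSO and 16140 MAK683 peaks, a ratio of 2.19. The median of those windows was 3 DMSO peaks and 15 MAK683 peaks, against 0 and 17 in the interval. Of those windows 28.7% had no DMSO peak, and 3 had none together with at least 17 in MAK683, limits taken from the interval itself. The part of base composition and of the wider region in the result at the cadherin genes was not tested. The plot of peak numbers gives the wider region.

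**Figure D3:**
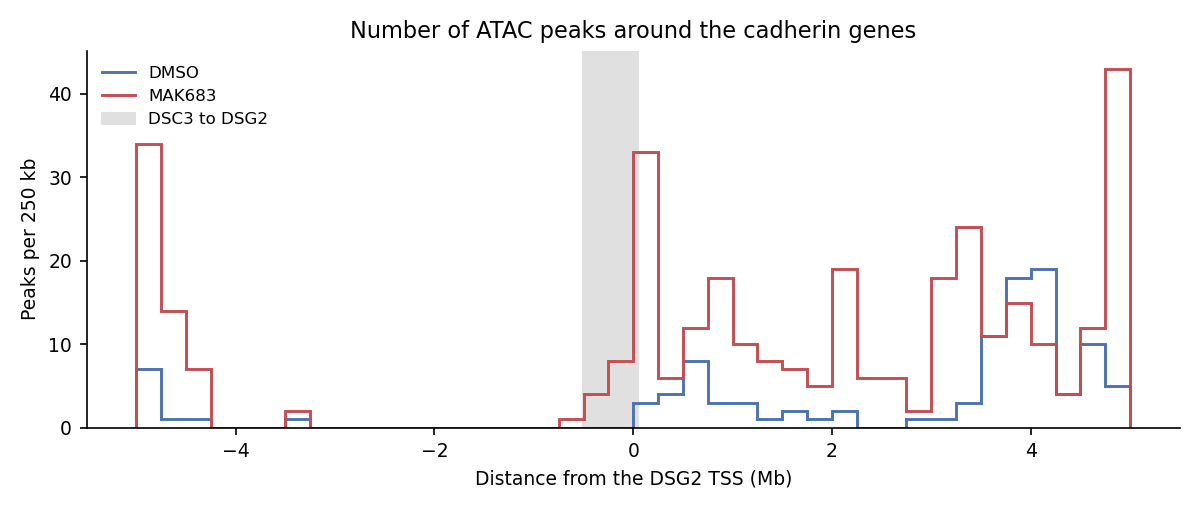
Number of peaks per 250 kb (y axis) in the DMSO and MAK683 libraries against the distance in Mb from the DSG2 TSS on chromosome 18, with the interval from DSC3 to DSG2 shaded. Both lines lie at or near 0 over several Mb to the left of the shaded interval, and to its right the MAK683 line is above the DMSO line in most bins.

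DSP and PKP2 were open in both libraries. DSP, the plaque protein that reaches the filaments, had the tallest promoter peak of the 10 genes in each. Its interval overlapped that of PKP2 in both libraries and that of DSG2 in MAK683, so the rank is not resolved. At DSP (ENSG00000096696; chromosome 6, 7541571 to 7586947, plus strand) the DMSO peak at 7541317 to 7543609 had 39 tags and 2.35 RPM (1.67 to 3.21). The MAK683 peak at 7541317 to 7543592 had 29 tags and 1.59 RPM (1.06 to 2.28). The log2 ratio of MAK683 to DMSO was -0.57, with an exact counting interval of -1.31 to 0.17 that includes 0. Summits lay 238 bp upstream of the TSS at 7541904 in DMSO and 2 bp downstream in MAK683, both in untranslated sequence of DSP and in an intron of DSP-AS1. Further DMSO peaks in the window had no MAK683 counterpart. One of 22 tags and 1.33 RPM (0.831 to 2.01) lay at 7544159 to 7544688 in an intron, and one of 10 tags at 7538626 to 7538936 entered the window with its end alone.

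PKP2 encodes a plakophilin of simple epithelia and the heart. At PKP2 (ENSG00000057294; chromosome 12, 32943679 to 33049732, minus strand) the DMSO peak at 33049185 to 33050677 had 25 tags and 1.51 RPM (0.975 to 2.22). The MAK683 peak at 33048225 to 33051381 had 27 tags and 1.48 RPM (0.974 to 2.15). The log2 ratio was -0.03 (-0.87 to 0.82), so the heights were indistinguishable at this depth, and the sign turned with the scale used: on unscaled tags the log2 ratio was 0.11. The MAK683 peak was longer, at 3157 bp against 1493 bp. Its summit lay 74 bp upstream of the TSS, and it overlapped 3 DMSO peaks, of which the smaller ones had 14 tags at 33048474 to 33049004 and 10 tags at 33050884 to 33051203. Another MAK683 peak, of 20 tags at 33045937 to 33046873, entered the window with its edge, while a DMSO peak of 11 tags at 33046017 to 33046290 lay just outside, 3421 bp from the TSS at 33049711.

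Both heights were read against all promoters. At the 14288 protein-coding genes whose promoter had a peak in DMSO and in MAK683, the median log2 ratio was -0.46, and 86.5% were lower in MAK683. The counting interval lay below 0 at 16.9% of them and above 0 at 0.819%. For G401 the study reports no significant change of chromatin opening around TSSs, from a composite profile. That is a different measure from peak height. DSP and PKP2 were both lower in RPM, and neither interval left out 0. Relative to the median of all promoters, DSP had a log2 ratio of -0.11 and PKP2 of 0.43. Just beyond the 3 kb limit, DSP had intronic peaks of 16 tags in DMSO, 3726 bp from the TSS, and of 11 tags in MAK683, 3943 bp from it. The plot of both start sites sets these peaks side by side.

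**Figure D4:**
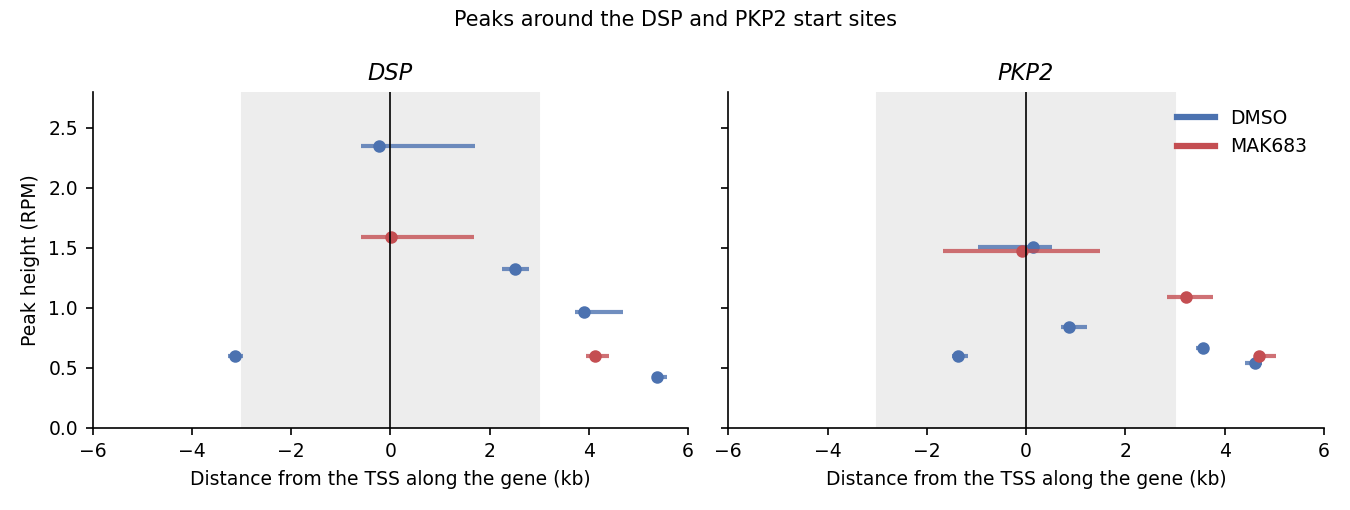
Peaks within 6 kb of the TSS of DSP (left) and PKP2 (right), each drawn as a line from its start to its end at its height in RPM (y axis), with a point at the summit; the x axis is the distance from the TSS along the gene in kb, and the 3 kb window is shaded. The main DSP peak is at 2.35 RPM in DMSO and 1.59 RPM in MAK683, and the main PKP2 peaks are at 1.51 and 1.48 RPM.

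PKP1, the plakophilin of stratified epithelia, was the weakest of the genes with a peak. At PKP1 (ENSG00000081277; chromosome 1, 201252580 to 201302121, plus strand) DMSO had no promoter peak. MAK683 had one of 8 tags and 0.438 RPM (0.189 to 0.863) at 201252430 to 201252629, with a summit 191 bp upstream of the TSS at 201252634. The nearest peaks beyond the window lay in the gene, 5955 bp from the TSS with 7 tags in DMSO and 5962 bp from it with 10 tags in MAK683. The −log10 q of the promoter peak was 3.02, and the lower end of its interval was below the listing limit. Of the 1587 promoters with a peak in MAK683 alone, 1268 were taller. The peak was lost with a −log10 q of at least 5, which left 4 members with a MAK683 promoter peak.

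The composition of the promoters was compared with the peaks over 300 bases, 250 before and 50 from the TSS. DSP held 37 CpG, PKP2 44 and DSG2 36, and these 3 genes had the tallest MAK683 peaks. DSC2 held 15 and PKP1 19, with lower peaks, of which that of DSC2 was the taller, with overlapping intervals. DSG1, DSG3, DSG4 and DSC1 held 3, 6, 1 and 2 CpG, and none had a peak. DSC3 had 25 CpG, more than DSC2 and PKP1, and no peak in either library. The order depended on the window. In the 200 bases before the first annotated TSS, DSP held 10 CpG and DSC2 held 1. There DSC3 held 18 and DSG3 held 3, both without a peak. Among all 20163 promoters the median over the 300 bases was 23 CpG. It was 27 with a peak in both libraries, 7 with a peak in MAK683 alone and 4 with a peak in neither. Of 4194 promoters with at most 6 CpG, 24.7% had a peak in DMSO and 39.7% in MAK683. Of 11687 with at least 20 CpG, 91.7% had one in DMSO and 94.3% in MAK683, so DSC3 in both libraries and DSG2 in DMSO were among the minority of CpG-rich promoters without a peak. These limits of CpG number were chosen after the values were seen.

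**Figure D5:**
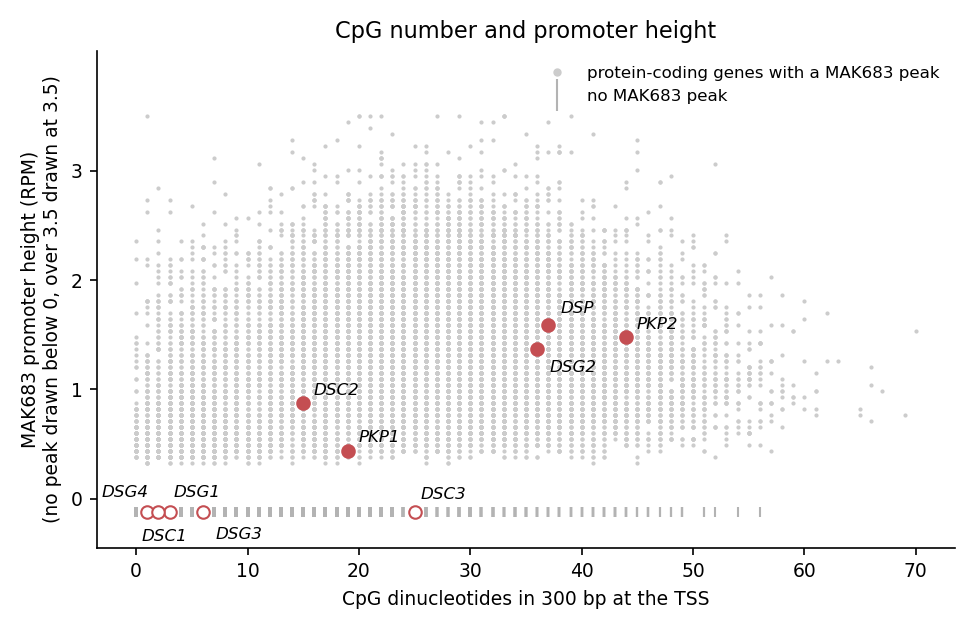
MAK683 promoter height in RPM (y axis) against the number of CpG dinucleotides in 300 bp at the TSS (x axis) for all protein-coding genes (grey) and the 10 desmosome genes (red); open circles and ticks below 0 have no MAK683 peak. DSP, PKP2 and DSG2 lie at 36 to 44 CpG with heights from 1.37 to 1.59 RPM, and DSC3 has 25 CpG and no peak.

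Short motifs were searched on both strands of the same 300 bases. GGGCGG, the core of a GC box bound by SP and KLF factors, was present at DSG2, DSC2, DSP, PKP1 and PKP2, the genes with a MAK683 peak, and at no other member. It was held by 60.9% of all promoters, a share not split by peak or by GC content, and DSP and PKP2 had 7 and 6 matches. This division of the members depended on the window. In the 200 bases before the first annotated TSS, DSG2, DSP and PKP2 held GGGCGG, and DSC2 and PKP1 did not. CACCTG, an E-box form read by SNAI and ZEB repressors, was present at DSG1, DSG2, DSC2, DSP and PKP2 and at 20.5% of all promoters. TGACTCA (AP-1), TATAAA and GGAATG (TEAD) were found at 0 of the 10, against 3.57%, 9.79% and 11.3% of all promoters. A match describes the letters and not binding.

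The partner genes encode other parts of the desmosome or its plaque. Of 7 partners, 6 had a promoter peak in DMSO and in MAK683, near the shares of 72.7% and 78.7% among all genes. With a window of 1 kb the numbers were 5 in DMSO and 4 in MAK683. JUP, which encodes plakoglobin, had 2.41 RPM (1.72 to 3.28) in DMSO and 1.70 RPM (1.15 to 2.41) in MAK683. PKP4 had 3.31 RPM in DMSO and 2.03 RPM in MAK683, with a log2 ratio of -0.71 (-1.35 to -0.08), the only interval of the 6 that left out 0. PKP3 had a log2 ratio of -0.40, and the plakin genes PPL and EVPL had -0.14 and -0.29. PERP, a membrane protein of desmosomes, had 0.23. The median of the 6 was -0.35, against -0.46 for all promoters. CDSN, which encodes corneodesmosin of the skin surface, had no peak.

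Among 10 intermediate filament genes, KRT8, KRT18 and VIM had a promoter peak in both libraries. KRT8 and KRT18 encode the keratin pair of simple epithelia, and VIM encodes vimentin of mesenchymal cells. Their DMSO heights were 1.99, 1.75 and 2.65 RPM, and their MAK683 heights 1.64, 1.26 and 2.24 RPM. The counting intervals of all 3 ratios included 0. KRT1, KRT5, KRT7, KRT10, KRT14, KRT19 and DES had no promoter peak in either library. Of 6 regulators known from keratinocytes, GRHL1, GRHL3, KLF4 and OVOL1 had a peak in both libraries, and TP63 and GRHL2 in neither. KLF4 was 1.14 RPM in DMSO and 1.70 RPM in MAK683, with a log2 ratio of 0.57 (-0.30 to 1.47). GRHL1 was 1.75 RPM and 0.985 RPM, with -0.83 (-1.76 to 0.07). For both lists, as for the partners, the shares among all genes were 72.7% in DMSO and 78.7% in MAK683. None of the partner, filament and regulator genes had a promoter peak in MAK683 alone, where the share among all genes was 7.87%.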

How the data were processed

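ATAC-seq peak lists of 2 libraries were used. Trimming was done with Trim-galore and alignment with Bowtie2 against hg19, according to the methods of the study. The authors ran MACS 2.1.1.20160309 separately for every library, per the file headers, with no control, no local background and a q-value limit of 0.05. The methods of the study name a different MACS2 version. Each tag was moved by -100 bp, lengthened to 200 bp and kept once per position. The deposited pileup is an unscaled signal, in whole tags at the summit. The deposited −log10 q-value and −log10 p-value grow with depth, and the deposited fold enrichment, a ratio, is relative to the genome-wide background. The q-value served as a filter and the fold enrichment as an alternative height. A genome-wide background leaves regional coverage uncorrected, so peak numbers can follow it.

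Pileup was divided by tags after filtering (RPM). The TSS of each gene was that of its canonical transcript in GENCODE 44 lifted to GRCh37, and 0 peak ends lay beyond a chromosome end. The promoter height was the tallest peak within 3 kb. Ratios have exact intervals from the conditional binomial of both tag numbers, treating tags as independent molecules. No p-value was computed, as there was 1 library per group. Sequences were read from GRCh37. The interval code was tested on simulated data. Named genes were the 10 members, 7 partners, 10 filament genes, 6 regulators, 3 neighbours (TTR, B4GALT6, CDH2) and cell markers. Interval peaks named were those at a TSS, shared ones and the tallest 5 of a library, and the others by position after their values were seen. PECAM1 was not analysed here, and a further blood marker and a promoter sequence are not reported here. Members and lists were chosen with earlier results of these data known. Alternatives were stricter peak filters, other windows and TSS sets, other height scales, a common height floor, wider interval ends and a stricter overlap. Python 3.11.15, numpy 2.4.6, pandas 2.3.3, scipy 1.17.1, pysam 0.24.0 and samtools 1.23.1 were used.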

Additional observations from a re-analysis of the deposited data

How the results depend on the processing

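When a −log10 q of 5 or more was required, the interval from DSC3 to DSG2 had 4 MAK683 peaks over 3332 bp, and at 10 or more it had 2 over 2233 bp, against 17 over 7044 bp, because 13 and 15 of the 17 were below those limits. The DMSO number stayed 0 throughout, but none of the settings could change it. The q filters and the common floor of 0.361 RPM can only remove peaks. The 50 kb added on each side lay within the DMSO stretch without peaks described above. The share of interval MAK683 peaks overlapping a DMSO peak was likewise fixed at 0. With such fixed zeros counted in, the other 51 of 55 alternative values stayed within 1.5 times of a count or within the counting interval. Among these, the sign of the log2 ratio of PKP2 turned from -0.03 to 0.11 on unscaled tags, 0.03 on fold enrichment and 0.43 after centring on all promoters, and the median of DSP and PKP2 from -0.30 to 0.16 after centring. The number of members with a MAK683 promoter peak was 4 under both q filters, without PKP1, and 5 under the other settings. No ratio of peak numbers, and no height ratio of shared regions, could be given for the interval, as DMSO had no peak there. No paired analysis was possible because each group has 1 library. Depth limits statements on peaks near 6 tags, and replicates are lacking.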

Other observations

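Beyond the promoter windows, the number of peaks listed in the gene bodies was compared for the desmosome genes outside chromosome 18. DSP, with a body of 45.4 kb, had 9 peaks in DMSO and 4 in MAK683. PKP1, of 49.5 kb, had 1 in DMSO and 6 in MAK683. PKP2, of 106 kb, had 4 and 5. Over all main chromosomes the ratio of MAK683 to DMSO peak numbers was 1.41. Such counts also depend on how peaks are joined, as 1 MAK683 peak at PKP2 overlapped 3 DMSO peaks. The body counts are numbers of peaks in single libraries, they include the promoter peaks over the gene, and the difference between the genes was not tested. The N-cadherin gene CDH2, which lies at the far end of the DMSO stretch without peaks, had a promoter height of 0.602 RPM from 10 tags in DMSO and 1.15 RPM from 21 tags in MAK683, with a log2 ratio of 0.93 (-0.22 to 2.18).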
